A study of Mus musculus with 6 samples.

Results

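The 10 genes described here encode the machinery by which a cell shows fragments of its own proteins on MHC class I: H2-K1 and H2-D1 (the classical heavy chains of the strain), B2m (β2-microglobulin, the light chain), Tap1 and Tap2 (the peptide transporter), Tapbp (tapasin, which holds an empty class I molecule at the transporter), Psmb8, Psmb9 and Psmb10 (the catalytic subunits of the immunoproteasome) and Nlrc5 (a transactivator of class I genes). They were chosen by gene symbol, and all 10 were found among the 53278 genes of the count table. The cells were type 2 innate lymphoid cells (ILC2s) sorted from the visceral adipose tissue of C57BL/6 mice, 8 weeks old, as lineage-, CD45+, ST2+ and CD117+ cells. Every mouse had received 3 intraperitoneal injections of 1 µg recombinant mouse IL-33, and every culture contained recombinant mouse IL-2 and IL-7, each at 10 ng/mL. The cells were cultured for 48 h with DTA-1 (5 µg/mL), an agonistic antibody to the costimulatory receptor GITR, in 3 libraries, or with an isotype control antibody in 3 libraries. The culture time is that of the labels and the methods, and the study's account of its results gives a shorter one. The labels do not say whether the libraries of a group came from separate animals or cultures, so p-values measure the spread between libraries, which may be technical. The comparison addresses whether transcripts of the class I machinery differ between ILC2s with and without GITR engagement.

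Class I processing starts in the proteasome, which cuts proteins in the cytosol. In cells exposed to interferon-γ the inducible subunits encoded by Psmb8, Psmb9 and Psmb10 replace those encoded by Psmb5, Psmb6 and Psmb7, and lymphocytes express the inducible set without added interferon. The transporter then moves peptides into the endoplasmic reticulum, where tapasin and the chaperones calreticulin and calnexin help load them onto the heavy chain and β2-microglobulin. Class I promoters are known to be read by NF-κB, by interferon regulatory factors and by an enhanceosome that Nlrc5 joins.

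Sequence upstream of members is shown because NF-κB and interferon regulatory factors are known to act on some class I genes through sites there. RefSeq entries for GRCm38.p6 matched 8 of the 10 members, with Tap2 and Nlrc5 not among them, and the 250 bases before each annotated start were searched on both strands. The NF-κB site, searched by its general consensus, was found in the windows of H2-K1, H2-D1 and B2m and in 7.25% of all 32851 windows of that length. The interferon-stimulated response element, searched as GAA and GAAA with 2 or 3 bases between them, was found in the same 3 genes and in 12.2% of all windows. In both heavy chain genes the stretch from the κB site to the response element spans 30 bases, with the sites in capitals:
H2-K1: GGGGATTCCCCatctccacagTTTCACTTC
H2-D1: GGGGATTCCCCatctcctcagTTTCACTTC
The H2-K1 stretch lies at chr17:34000429-34000458 on the minus strand, 111 to 82 bases before the RefSeq start, and the H2-D1 stretch at chr17:35262923-35262952 on the plus strand, 171 to 142 bases before the RefSeq start. The count table begins H2-D1 farther upstream, so this stretch lies inside the gene as it was counted. The windows of Tapbp, Psmb8, Psmb9 and Psmb10 likewise lie in whole or in part inside their counted genes. The stretches of H2-K1 and H2-D1 differ by 1 base, A18T, counted from 1 at the 5′ end with the base of H2-K1 first. A local alignment of the whole H2-K1 and H2-D1 windows held 177 columns, of which 161 (91.0%) were identical.

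The windows of H2-K1 and B2m are given in full, 5′ to 3′ on the strand of the gene, to set the light chain beside a heavy chain. Capitals mark the κB site, the response element (matched on overlapping bases in B2m), TGACG (the core of a cyclic AMP response element) and CCAAT, each on either strand:
H2-K1: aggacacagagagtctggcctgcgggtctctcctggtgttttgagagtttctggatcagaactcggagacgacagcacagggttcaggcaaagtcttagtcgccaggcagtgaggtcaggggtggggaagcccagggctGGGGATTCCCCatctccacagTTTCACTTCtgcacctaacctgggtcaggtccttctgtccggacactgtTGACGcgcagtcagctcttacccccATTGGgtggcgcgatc
B2m: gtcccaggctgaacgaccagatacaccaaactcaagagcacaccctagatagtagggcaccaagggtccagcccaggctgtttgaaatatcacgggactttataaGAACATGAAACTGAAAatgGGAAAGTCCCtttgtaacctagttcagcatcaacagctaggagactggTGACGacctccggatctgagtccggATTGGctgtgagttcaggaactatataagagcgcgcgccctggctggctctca
These windows are chr17:34000348-34000597 on the minus strand and chr2:122147437-122147686 on the plus strand. TGACG stood in 17.8% of all windows and CCAAT in 33.8%. In B2m the response element precedes the κB site, and in the heavy chains it follows it. Of the 8 member windows TGACG was found in 5 (H2-K1, H2-D1, B2m, Tap1 and Psmb9) and CCAAT in 6 (the same genes and Tapbp). Tap1 and Psmb9 are transcribed away from each other from RefSeq starts 226 bases apart. Their windows are therefore largely the same DNA read on opposite strands. The TGACG and CCAAT matches of Tap1 are the same bases as those of Psmb9 and are counted for both genes. No match to the motifs searched was found in the windows of Psmb8 and Psmb10.

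Most members lie on chromosome 17 in the mm10 coordinates of the count table (GRCm38). H2-K1 spans chr17:33996017-34000333 on the minus strand, and Tapbp lies near it at chr17:33915899-33929288. Psmb9 (chr17:34181988-34187764, minus strand), Tap1 (chr17:34187553-34197225), Psmb8 (chr17:34197721-34201454) and Tap2 (chr17:34203527-34216321) follow one another in a single cluster. H2-D1 lies farther along at chr17:35262730-35267499. The other members are B2m (chr2:122147686-122153083), Psmb10 (chr8:105935735-105938444, minus strand) and Nlrc5 (chr8:94434356-94527272). Each value below is a count summed over the whole gene and cannot be assigned to an exon or intron.

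Total counts were 34557215 to 35131329 in isotype control and 30569351 to 32492849 in DTA-1. Levels are given as CPM, the count scaled to the size of the library. A count of 0 allows up to 3 counts, or 0.0854 to 0.0981 CPM, a limit that covers counting error only. Across genes, the library labelled DTA-1 replicate 1 lay as near to isotype control (chi-square per degree of freedom 9.64 to 11.3 over its pairs) as isotype controls lay to each other (11.4 to 17.0), while DTA-1 replicates 2 and 3 lay at 26.4 to 37.9 from isotype control. Results are therefore given with and without it. Because that library was picked from these same counts, adjusted p-values without it tend to be too small. They describe the remaining libraries and are not an independent test. The 14 listed ILC2 markers were all expressed, with a summed level of 14663 to 15452 CPM in isotype control, 15673 in DTA-1 replicate 1 and 19311 to 20240.5 in DTA-1 replicates 2 and 3. Most of that difference was Il5, at 5063 to 5493 CPM in isotype control and 5627, 9695 and 8899.4 CPM in DTA-1. Other markers of the list went the other way, such as Icos, at 156 to 173 CPM in isotype control and 157, 99.0 and 98.4 CPM in DTA-1. Summed markers of T cells (41.0 to 54.2 CPM over isotype control, 47.7 to 51.3 over DTA-1), B cells (16.6 to 17.3 and 17.2 to 18.2) and macrophages (6.44 to 12.2 and 8.67 to 11.9) overlapped between the groups. In bulk RNA, fewer cells of a type and less RNA per cell cannot be told apart.

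The class I machinery was abundant in these ILC2s and did not pass the test for a change with DTA-1 in any of its 10 genes. A gene was called differentially expressed at a Benjamini-Hochberg adjusted p under 0.05 in the quasi-likelihood fit of edgeR and at least a 1.5-fold change, with n = 3 in each group. By that rule 0 of the 10 members and 0.0% of the 14361 genes tested were called, so the count of members says nothing particular to them. DESeq2's Wald test also called 0 members, and 0.152% of the 16452 genes it tested. An unadjusted p under 0.05 was reached by 2 of the 10 members, B2m and Tapbp, both higher, and by 7.22% of all genes tested (4.12% higher). The 95% intervals rest on the spread between these libraries, which may be technical, and need not bound a change between animals. All 10 members had a 95% interval of the fold change inside 1.5-fold in both directions, against 58.9% of all genes tested. The largest SE of a member was 0.096 and the median SE of all genes tested was 0.144. These shares therefore compare genes measured with unlike precision. The bounds over the members reached from 0.828-fold to 1.37-fold. The log2 fold change was above 0 in 7 members and below in 3 (48.1% of all genes were above 0), with a median of 0.02 beside −0.01 over all genes. Without DTA-1 replicate 1 the median was 0.05, the 10 intervals still lay inside 1.5-fold (52.7% of all genes), and Tapbp alone passed the adjusted threshold.

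**Figure D1:**
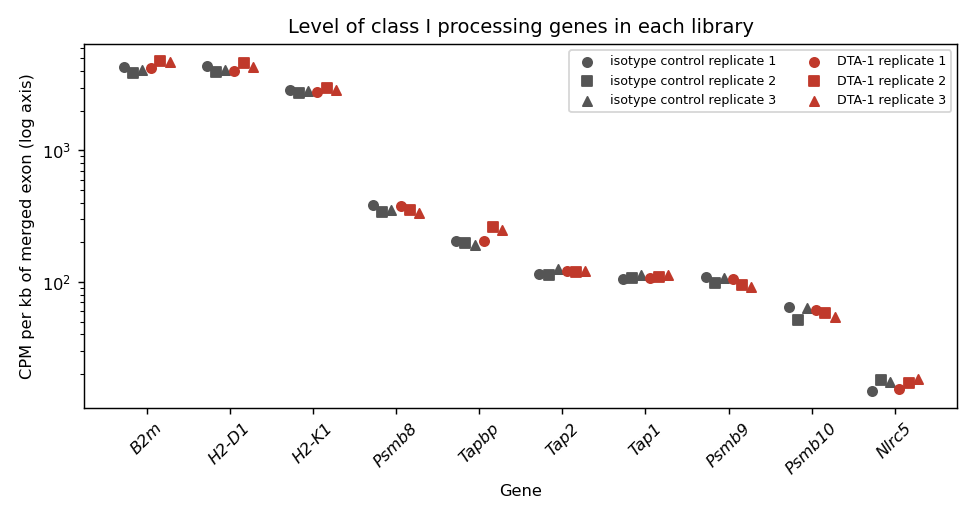
Level of each member in each library, as CPM per kb of merged exon on a log axis, with isotype control in grey, DTA-1 in red and a symbol for each replicate number. B2m, H2-D1 and H2-K1 stand at or above 2720.1 CPM per kb in every library, and Nlrc5 at or below 18.2.

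Levels between genes were compared per kb of merged exon, as the mean over the 6 libraries. B2m (4329 CPM per kb) and H2-D1 (4219) ranked 4 and 5 of 14096 genes, and their ranges over libraries overlapped. H2-K1 followed at 2841 (rank 9). The 10 genes together took 1.86% to 2.05% of all counts in a library. Psmb8 (356) and Tapbp (218) stood next, each apart from its neighbours in the order. Tap2 (119), Tap1 (109) and Psmb9 (101) followed, and Tap2 and Tap1, and then Tap1 and Psmb9, could not be separated by their ranges. Psmb10 (58.7) and Nlrc5 (16.8, rank 4383) closed the order, with no overlap. The transactivator was thus the lowest of the members and the light and heavy chains the highest.

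H2-D1 was the most abundant heavy chain. Its level was 9128, 8336 and 8568 CPM in the isotype control libraries (replicates 1, 2 and 3) and 8371, 9689 and 9113 CPM in the DTA-1 libraries. The groups overlapped, and DTA-1 replicate 1 lay among the controls. The log2 fold change was 0.06 (SE 0.07, 95% interval −0.09 to 0.21), with an adjusted p of 0.881. H2-K1 measured 4743, 4502 and 4670.1 CPM in isotype control and 4609, 4940.3 and 4749 CPM in DTA-1. These values overlapped as well, and the spread between control libraries (SD 124 CPM) was close to the difference of the means. On the log2 scale the change was 0.04 (SE 0.06, 95% interval −0.09 to 0.17), with an adjusted p of 0.919.

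Heavy chain genes resemble one another, and reads may have been split among them in a way that the sources used here do not describe. Of all 50-base words in the annotated transcripts of H2-D1, 12.8% also occur in transcripts of other genes, and of those of H2-K1 9.63%. Summing the counts of 30 class I heavy chain genes gives a value that splitting among these genes cannot change. The sum had a log2 fold change of 0.06 (SE 0.06) and an adjusted p of 0.884, and H2-D1 and H2-K1 made up 84.0% of it. Among the other class I and class I-like heavy chains, 14 of 22 listed genes could be tested. Of these 10 were higher and 4 lower, 0 had an unadjusted p under 0.05 and the median log2 fold change was 0.06. H2-T23, the mouse Qa-1 heavy chain, which presents leader peptides of other class I molecules, measured 594, 553 and 565 CPM in isotype control and 564, 693 and 625 CPM in DTA-1. This was a log2 fold change of 0.14 (SE 0.08, adjusted p = 0.738). H2-Q7, a Qa-2 heavy chain, ran from 929.9 to 1003 CPM in isotype control and from 987 to 1063 CPM in DTA-1, and its log2 fold change was 0.06 (SE 0.06). H2-T10 (−0.16, SE 0.11) and Hfe (0.41, SE 0.33) had others of the lowest p-values of that list, none of them under 0.05. Hfe, a class I-like regulator of iron uptake, measured only 1.64 to 3.98 CPM.

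B2m, whose product pairs with the class I heavy chains, measured 3673, 3355 and 3533 CPM in isotype control and 3619.6, 4139.9 and 4016 CPM in DTA-1. DTA-1 replicates 2 and 3 were above all controls and DTA-1 replicate 1 was within them. The log2 fold change was 0.16 (SE 0.07, 95% interval 0.01 to 0.31), with an unadjusted p of 0.0413 by edgeR's quasi-likelihood test and an adjusted p of 0.677. Without DTA-1 replicate 1 it was 0.21 (SE 0.05), and the adjusted p of 0.0839 still missed the threshold.

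**Figure D2:**
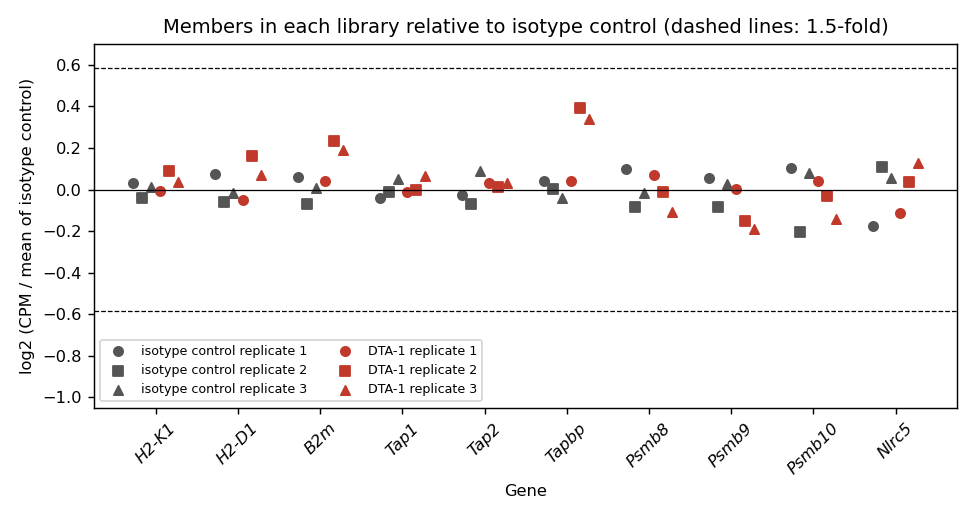
Each library's level of each member relative to the mean of the 3 isotype control libraries, as a log2 ratio, with isotype control in grey, DTA-1 in red and dashed lines at 1.5-fold. All points lie inside the dashed lines, and Tapbp in DTA-1 replicates 2 and 3 (751 and 724 CPM) lies farthest above 0.

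Tapbp had the largest log2 fold change of the members with all 6 libraries and in every one of the 13 alternative fits. It measured 588, 574 and 557 CPM in isotype control and 589.6, 751 and 724 CPM in DTA-1. The groups did not overlap, but DTA-1 replicate 1 cleared the highest control by about 1 CPM, while replicates 2 and 3 were well above it. Tapbp was the 1 member of 10 whose groups did not overlap, and 11.3% of all genes tested did so (5.26% with every DTA-1 library above). Its log2 fold change was 0.26 (SE 0.09, 95% interval 0.08 to 0.45), with an unadjusted p of 0.0103 and an adjusted p of 0.626 by edgeR's quasi-likelihood test. Without DTA-1 replicate 1 it was 0.36 (SE 0.05, 95% interval 0.25 to 0.48, 1.29-fold), with an adjusted p of 0.00960. This passed the adjusted threshold, as did 1.7% of the 14911 genes tested in that fit (1.35% higher), and fell short of 1.5-fold. Tapbp, B2m and the other genes given here without DTA-1 replicate 1, all but Col1a1, had their lowest adjusted p in the fit without it. The highest over all alternatives was 0.999. Tapbp overlaps Zbtb22 on the same strand over 3421 bases of the gene. Scaled to library size, Zbtb22 measured 24.8, 24.9 and 27.2 CPM in isotype control and 20.4, 22.6 and 25.2 CPM in DTA-1, and the groups overlapped.

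Both chains of the peptide transporter had log2 fold changes near 0. Tap1 measured 312, 318 and 332 CPM in isotype control and 318, 319.6 and 336 CPM in DTA-1. Tap2 measured 398, 386 and 431 CPM in isotype control and 414, 408 and 413 CPM in DTA-1. The DTA-1 libraries of Tap2 all lay within the range of the controls, and those of Tap1 lay within it but for 1. The log2 fold change of each was 0.02 (SE 0.06), with 95% intervals of −0.11 to 0.15 for Tap1 and −0.11 to 0.16 for Tap2. Both turned to the opposite sign when scaled by total counts (−0.02 and −0.01), so they have no direction here.

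Around tapasin and the transporter, the loading and trimming genes were mostly above 0. Of the 19 listed genes for peptide loading, trimming and transport, all 19 were tested, 16 had a log2 fold change above 0 (48.1% of all genes), and the median was 0.15, beside −0.01 over all genes. None was called with all 6 libraries, and 4 had an unadjusted p under 0.05, all higher, as had 4.12% of all genes. Without DTA-1 replicate 1, Calr, Hspa5 and Ganab passed the adjusted threshold, all higher, as did 1.35% of all genes, and 0 of them reached 1.5-fold. Calr, which encodes calreticulin, the chaperone that hands heavy chains to the loading complex, measured 694, 705 and 718 CPM in isotype control and 708, 1024 and 989.8 CPM in DTA-1. DTA-1 replicate 1 sat among the controls. In the fit the log2 fold change was 0.36 (SE 0.11, adjusted p = 0.626), and 0.51 (SE 0.05, adjusted p = 0.000907) without that library. Hspa5, which encodes the general chaperone BiP of the endoplasmic reticulum, measured 1748, 1873 and 1817 CPM in isotype control and 1944, 2529 and 2444 CPM in DTA-1. All 3 DTA-1 libraries were above the controls. The fitted log2 change was 0.35 (SE 0.09, adjusted p = 0.626), and 0.46 (SE 0.05, adjusted p = 0.00171) without DTA-1 replicate 1. Ganab, the catalytic subunit of glucosidase II, which trims glycans so that calreticulin can bind, had log2 fold changes of 0.27 (SE 0.11) and 0.40 (SE 0.06). Npepps, a cytosolic aminopeptidase, measured 59.4 to 70.7 CPM in isotype control and 72.7 to 77.3 CPM in DTA-1 (0.20, SE 0.09, adjusted p = 0.668). Calr, Hspa5 and Ganab serve the folding of glycoproteins in general and not class I alone.

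**Figure D3:**
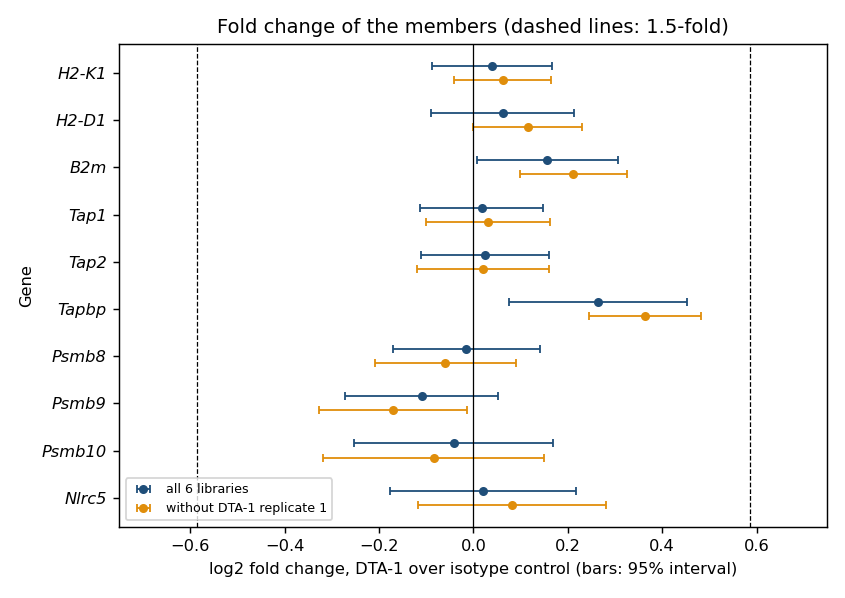
Log2 fold change of each member, DTA-1 over isotype control, with its 95% interval, from all 6 libraries (blue) and without DTA-1 replicate 1 (orange), and dashed lines at 1.5-fold. Every interval lies between the dashed lines, and those of Tapbp (0.08 to 0.45 and 0.25 to 0.48) lie above 0.

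The immunoproteasome subunits were the members with log2 fold changes below 0 with all 6 libraries, and none passed the test. Psmb8 and Psmb10 changed sign when single libraries were left out, and Psmb9 did not. Psmb8 measured 623, 548 and 575 CPM in isotype control and 612, 577 and 539.9 CPM in DTA-1. Its log2 fold change was −0.01 (SE 0.07, 95% interval −0.17 to 0.14). Psmb9 measured 147, 133 and 144 CPM in isotype control and 142, 127 and 124 CPM in DTA-1. DTA-1 replicates 2 and 3 were below every control and replicate 1 was within them. For Psmb9 the log2 fold change was −0.11 (SE 0.07, adjusted p = 0.772), and −0.17 (SE 0.07, adjusted p = 0.316) without DTA-1 replicate 1. Psmb10 measured 84.0, 67.8 and 82.4 CPM in isotype control and 80.2, 76.5 and 70.9 CPM in DTA-1, with the DTA-1 libraries inside the control range. This was a log2 fold change of −0.04 (SE 0.10, 95% interval −0.25 to 0.17).

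Each inducible subunit was set against the constitutive subunit it replaces, per kb of exon. Psmb8 to Psmb5, the chymotrypsin-like pair, gave ratios of 1.49, 1.55 and 1.47 in isotype control, against 1.57, 1.48 and 1.51 with DTA-1, so the inducible transcript was the more abundant in all 6 libraries. The log2 difference between the groups was 0.01, with p = 0.6 by a two-sided exact permutation test. Psmb9 to Psmb6 gave 0.383, 0.400 and 0.406 in isotype control, against 0.397, 0.345 and 0.352 with DTA-1, a log2 difference of −0.12 with an exact permutation p of 0.2. Psmb10 to Psmb7 gave 0.426, 0.398 and 0.453 in isotype control, against 0.427, 0.306 and 0.330 with DTA-1, a log2 difference of −0.28 with an exact permutation p of 0.3. In the latter pairs the constitutive transcript was the more abundant in every library, DTA-1 replicates 2 and 3 lay below the controls, and DTA-1 replicate 1 lay among them. The 3 adjusted p-values were 0.6, 0.45 and 0.45, and 3 libraries against 3 cannot give a p under 0.1. Without DTA-1 replicate 1 the differences were −0.01, −0.19 and −0.42.

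**Figure D4:**
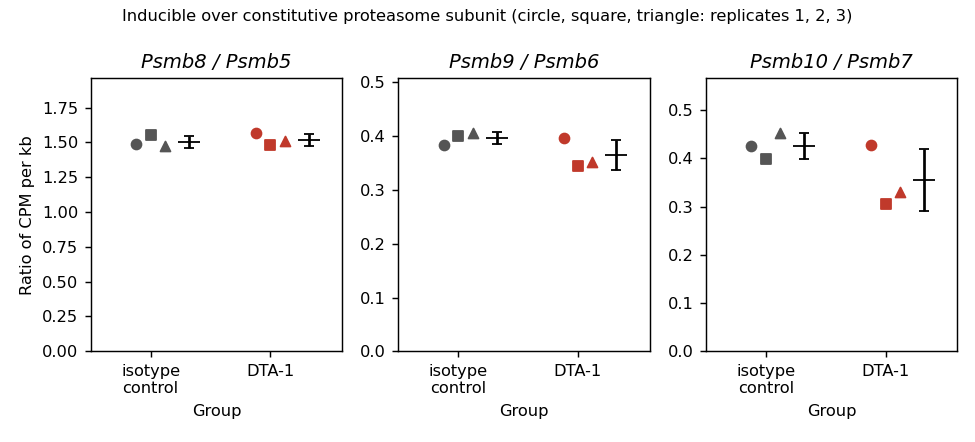
Ratio of each inducible proteasome subunit to its constitutive counterpart, from CPM per kb of merged exon, in each library, with the mean and SD of each group in black and axes from 0. Psmb8 exceeds Psmb5 in every library, and the lowest ratios of the other pairs are those of DTA-1 replicates 2 and 3.

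The Psmb10 to Psmb7 difference came with a higher denominator. Psmb7 measured 174, 151 and 161 CPM in isotype control and 166, 221 and 189.9 CPM in DTA-1, with a log2 fold change of 0.25 (SE 0.10, adjusted p = 0.657). Psmb5 and Psmb6 had log2 fold changes of −0.03 (SE 0.07) and 0.01 (SE 0.07). Of 14 listed proteasome activators, assembly factors and constitutive counterparts 13 were tested, 8 were above 0, the median was 0.02, and Psmb7 and Psmf1 had an unadjusted p under 0.05. Psmf1, which encodes the proteasome inhibitor PI31, measured 59.6, 53.1 and 52.9 CPM in isotype control and 62.8, 65.5 and 69.8 CPM in DTA-1, with a log2 fold change of 0.26 (SE 0.09, adjusted p = 0.626). Psme1 and Psme2, the interferon-inducible PA28 activator, were picked after their values were seen. They had log2 fold changes of −0.06 (SE 0.07) and −0.03 (SE 0.08).

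Nlrc5, which drives class I, B2m and Tap1 transcription through the conserved promoter module of these genes, measured 119.8, 146 and 141 CPM in isotype control and 125, 139 and 148 CPM in DTA-1. The groups overlapped, and the lowest value of each was its replicate 1. The log2 fold change was 0.02 (SE 0.09, 95% interval −0.18 to 0.22), with an adjusted p of 0.973. Its sign changed under total counts (−0.02).

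Of the transcription factors known to act on class I promoters, all 22 listed genes were tested, 14 were above 0 with a median of 0.09, and none was called with all 6 libraries. Without DTA-1 replicate 1, 3 of the 22 were called, all higher, and 0.744% of all genes were called. Nfkb2, which encodes the p100 precursor of the alternative NF-κB pathway, measured 115, 103 and 115 CPM in isotype control and 108, 307 and 315 CPM in DTA-1. DTA-1 over isotype control gave a log2 fold change of 1.13 (SE 0.43, adjusted p = 0.678), and 1.49 (SE 0.07, adjusted p = 1.34e-05) without DTA-1 replicate 1. Relb, the partner of its processed form, measured 43.5, 39.9 and 35.1 CPM in isotype control and 39.4, 85.1 and 85.5 CPM in DTA-1. Its log2 fold change was 0.83 (SE 0.24, adjusted p = 0.626), and 1.11 (SE 0.10, adjusted p = 0.000610) without that library. Nfkb1, the p105 precursor of the p50 subunit, went the other way, with 380.5 to 409 CPM in isotype control and 406, 272 and 269.6 CPM in DTA-1. The fitted log2 change was −0.32 (SE 0.13), and −0.54 (SE 0.06, adjusted p = 0.00162) without that library, short of 1.5-fold. In DTA-1 replicates 2 and 3, in which Nfkb2 and Relb were highest, the members whose windows hold a κB site differed in where they lay against the controls. H2-K1 measured 4940.3 and 4749 CPM there, beside 4502 to 4743 CPM in isotype control. H2-D1 measured 9689 and 9113 CPM, beside 8336 to 9128 CPM. B2m measured 4139.9 and 4016 CPM, beside 3355 to 3673 CPM, and none of the 3 genes passed the adjusted threshold.

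Irf9, the DNA-binding part of the factor that acts downstream of type I interferon receptors, measured 38.5, 32.3 and 32.4 CPM in isotype control and 33.8, 55.3 and 52.9 CPM in DTA-1. On the log2 scale the change was 0.46 (SE 0.17, adjusted p = 0.632), and 0.65 (SE 0.11, adjusted p = 0.0161) without DTA-1 replicate 1. Irf1, a factor of the class I response element that was picked after its values were seen, measured 98.1 to 108 CPM in isotype control and 96.2 to 105 CPM in DTA-1, with a log2 fold change of −0.02 (SE 0.07).

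The interferon genes themselves were not detected, with 0 counts of Ifng and of Ifnb1 in all 6 libraries, which allows up to 3 counts in each. The other 8 of the 10 listed genes for interferon receptors and their kinases were tested, and 4 were above 0 with a median of 0.02. Tyk2, a kinase of type I interferon receptors, measured 136, 141 and 132 CPM in isotype control and 141, 158 and 165 CPM in DTA-1 (0.18, SE 0.07, adjusted p = 0.657). Jak1, a kinase of both receptor types, had a log2 fold change of 0.18 (SE 0.08, adjusted p = 0.692). Ifngr1, the ligand-binding chain of the interferon-γ receptor, measured 214, 207 and 227 CPM in isotype control and 224, 175 and 172 CPM in DTA-1. Its log2 fold change was −0.18 (SE 0.10, adjusted p = 0.734), and −0.32 (SE 0.06, adjusted p = 0.0460) without DTA-1 replicate 1, again short of 1.5-fold.

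**Figure D5:**
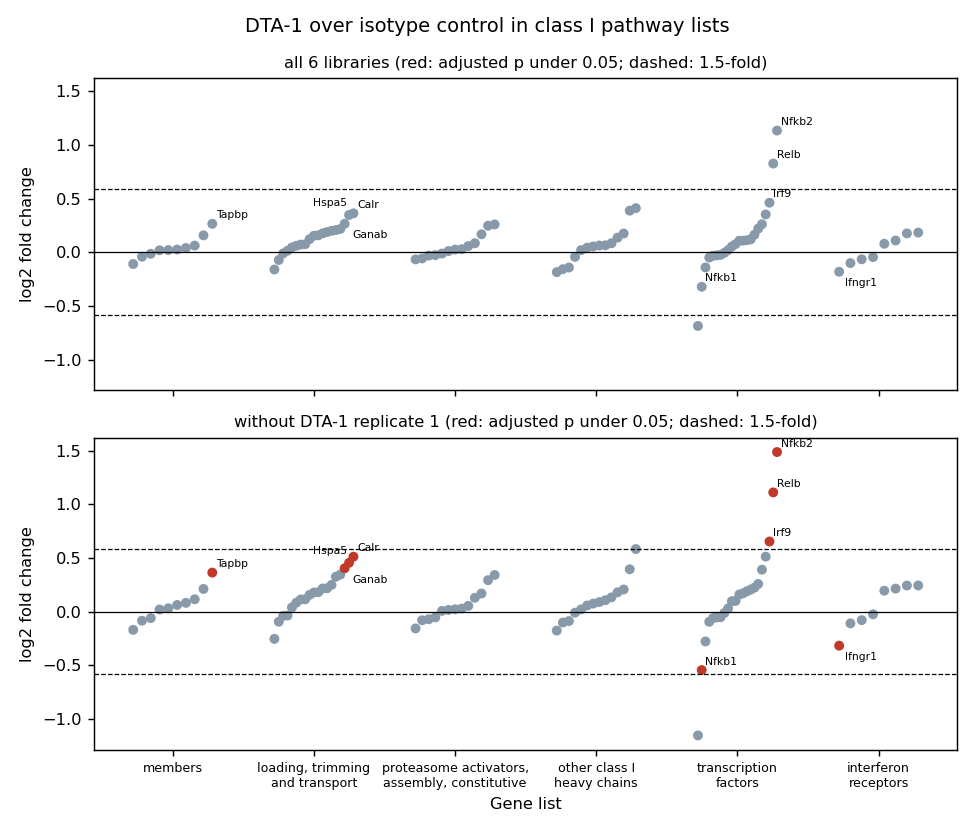
Log2 fold change, DTA-1 over isotype control, of each tested gene of the members and of the 5 class I pathway lists, from all 6 libraries (top) and without DTA-1 replicate 1 (bottom), in red where the adjusted p is under 0.05, with dashed lines at 1.5-fold. No gene is red in the top panel, and Nfkb2 (1.49), Relb (1.11) and Irf9 (0.65) are red above the upper dashed line in the bottom panel.

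The members' joint profile, the mean of their standardised log2 levels, was lowest in isotype control replicate 2 (−0.81) and highest in DTA-1 replicate 2 (0.48). Over the 6 libraries the genes with the most similar profiles, of 14238 compared, were Stk11ip (Pearson r = 0.990), Rbm42 (0.988), Pef1 (0.987), 4921514A10Rik (0.987) and Il18r1 (0.986), the last a subunit of the IL-18 receptor. Of these, 4921514A10Rik (mean 0.408 CPM) and Il18r1 (mean 2.90 CPM) were measured at low levels. With 6 libraries that share their scaling, these are a description of likeness only.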

How the data were processed

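RNA was sequenced from 10 ng of input RNA a library in 3 isotype control and 3 DTA-1 libraries. The deposited table gives expected counts per gene, made by the authors with Partek and not normalized. The table names the isotype control columns PBS-GITR, and the labels tie each to its library. The submitters' processing notes also name STAR 2.5.3a, bcl2fastq 2.17.1.14 and mm10. The annotation release, the use of strand and the treatment of reads that match several genes are not given in the sources used here. Antisense and same-strand neighbours overlap 8 of the 10 members, and their reads may not be told apart.

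The 10 members, the pathway and marker lists and the rule for naming genes were chosen with earlier results of these data known. All members were named. From each pathway list the text names genes differentially expressed with all libraries or without DTA-1 replicate 1, up to 4 genes with the smallest p, and Psmb5, Psmb6 and Psmb7. H2-Q and H2-T genes were eligible for read sharing. A gene of the transcription factor list that the rule names is not reported here.

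Expected counts were rounded and fitted with edgeR 4.0.16 in R 4.3.3 (filterByExpr, TMM, robust quasi-likelihood F test, no covariate) over 14361 genes. CPM use TMM-scaled library sizes, and SEs come from the F statistic. Alternatives were DESeq2 1.42.0 (size factors, Wald test), limma 3.58.1, total counts, other filters, a replicate block and each library left out. Subunit ratios had a two-sided exact permutation test (scipy 1.17.1). On simulated data with a 2-fold change in 200 genes, 185 were recovered with 11 false calls among 14146 genes. Recovery of smaller changes, or of changes in the sequenced libraries, was not tested. Gene models were GENCODE M21, and the upstream windows were RefSeq's.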

Additional observations from a re-analysis of the deposited data

How the results depend on the processing

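No member was differentially expressed under any alternative, and all 10 members' 95% intervals lay inside 1.5-fold under each, a count chosen after the values were seen. The number of genes differentially expressed was 0 with all 6 libraries, 25 by DESeq2's Wald test, 2 without a filter, 1 with the replicate number as a block, 337 with an unadjusted p and 1.5-fold, and 0 to 111 with 1 library left out, the 111 being without DTA-1 replicate 1. Leaving out 1 library gave 0 to 1 member with an adjusted p under 0.05 (Tapbp, without DTA-1 replicate 1) and 0 to 3 differentially expressed pathway genes. The members with a log2 fold change above 0 were 7 with all libraries, 4 under total counts and 6 to 8 with 1 library left out. Total counts moved the median of all genes from −0.01 to −0.04, and gave −0.019 for Tap1, −0.012 for Tap2 and −0.018 for Nlrc5. With 1 library left out, values crossed 0 for Tap1 (−0.0071 to 0.043), Tap2 (−0.0083 to 0.071), Psmb8 (−0.060 to 0.041), Psmb10 (−0.13 to 0.018), Nlrc5 (−0.057 to 0.082) and the Psmb8 to Psmb5 ratio (−0.0082 to 0.037). The causes were not tested. Tapbp and B2m stayed above 0 and Psmb9 below 0 in all 14 fits. Samples with the same replicate number did not deviate together (r of −0.0069, −0.0028 and 0.015). With so few libraries this cannot exclude a pairing, and the labels do not state one. The block called 0 members.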

Other observations

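Cd74, the invariant chain of class II molecules, was higher in DTA-1 replicates 2 and 3, in which Tapbp was also highest. Of the class II chains listed with it, only H2-Ab1 exceeded every control, and only in DTA-1 replicate 2. A link between Cd74 and Tapbp was not tested. Cd74 was listed among the dendritic cell markers and measured 20.8, 14.6 and 17.5 CPM in isotype control and 14.9, 45.04 and 49.5 CPM in DTA-1. Its log2 fold change was 1.05 with all 6 libraries (adjusted p = 0.657 by edgeR's quasi-likelihood test). Without DTA-1 replicate 1 it was 1.42 (adjusted p = 0.00129 by the same test). In that fit 1.7% of the 14911 genes tested passed the adjusted threshold (1.35% higher). H2-Ab1 measured 13.3 to 15.7 CPM in isotype control and 13.1, 18.8 and 13.4 CPM in DTA-1 (log2 fold change 0.05), and H2-Aa (0.06) and H2-Eb1 (−0.70) did not pass the test either. Of the 9 listed dendritic cell markers 7 were tested, with a summed level of 78.1 to 88.8 CPM in isotype control and 76.8 to 115.6 in DTA-1. Xcr1 measured 44.4 to 47.7 CPM over all 6 libraries.

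Pecam1 and Col1a1, single markers of other cell types, were lower in every DTA-1 library than in any control. So were 866 of the 14361 genes tested, while 755 were higher in every DTA-1 library. Zbtb46 and Cd79a, listed for dendritic cells and B cells, went the other way. Both were at low levels and higher in every DTA-1 library than in any control. For Pecam1 the margin was narrow, with DTA-1 replicate 1 just under the lowest control. Pecam1, listed for endothelial cells, measured 24.4, 18.4 and 22.2 CPM in isotype control and 18.3, 10.4 and 10.8 CPM in DTA-1, with a log2 fold change of −0.72 (adjusted p = 0.626), and −1.03 (adjusted p = 0.0132) without DTA-1 replicate 1. Cdh5 and Emcn, of the same list, had 0 counts in every library. Kdr was counted 5 times in DTA-1 replicate 2 and Tek 19 times in DTA-1 replicate 3, each with 0 counts elsewhere. Col1a1, listed for fibroblasts, was counted 60, 56 and 68 times in isotype control, against 0, 9 and 3 times with DTA-1, with an adjusted p of 0.491, of 0.0325 without DTA-1 replicate 1, and between 0.00344 and 0.997 over all alternatives. Here DTA-1 replicate 1 was the lowest library, and Dpt, of the same list, had 0 counts in every library. Col3a1 was counted 57, 3 and 102 times in isotype control, against 0, 0 and 92 times with DTA-1. Pdgfrb was counted 0, 0 and 1 times in isotype control, against 27, 0 and 0 times with DTA-1. The summed fibroblast markers were 1.80 to 7.71 CPM in isotype control and 0.288 to 3.98 in DTA-1, and the endothelial ones 18.4 to 24.4 and 10.6 to 18.3. Those of NK cells and ILC1s were 1.36 to 3.997 and 1.97 to 4.55, and those of neutrophils, adipocytes and mesothelial cells at most 1.41 in any library. The part of any such cells in the values of the class I genes was not tested.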
